A study of Mus musculus with 4 samples.

Results

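RAD21 binding was examined around 9 genes of the endoderm and liver lineages in mouse embryonic stem cells (ESCs) and in embryoid bodies (EBs). The genes were Gata4, Gata6, Sox17, Foxa2, Hnf4a, Afp, Alb, Ttr and Apoa1, 9 of 21418 protein-coding autosomal genes. They were taken as a list of names, chosen with earlier results of these data known. Every deposited RAD21 site within 100 kb of a gene body was assigned to them. This gave 14 sites of the ESC list and 18 sites of the EB list, which made 26 separate sites of 18504 on the autosomes, since 6 were listed in both. Alb and Afp lie next to each other and shared sites, which were counted once.

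The study mapped RAD21, a core subunit of cohesin, with ChIP-seq, in which chromatin bound to a protein is precipitated and its DNA sequenced. The ESCs were feeder-free R1/E cells, a mouse ESC line grown on gelatin with LIF, at day 0 of differentiation, and the EBs were cell aggregates grown from the same line in hanging drops for 12 days. All 4 libraries came from cells that carried a RAD21 gene with a C-terminal LAP (GFP) tag on a bacterial artificial chromosome beside their own copies, obtained as resistant clones sorted for GFP, and RAD21 was precipitated with a goat antibody against eGFP. The controls of both cell types were precipitated with a goat IgG isotype antibody, although their descriptions also speak of input DNA. There was 1 RAD21 and 1 IgG library per cell type, so no difference below was tested across conditions, and each describes the libraries compared. EBs are mixtures of cell types, and fewer cells with a bound site cannot be told apart from weaker binding in each cell. Expression was not measured in these libraries, so that the labelled cell types could not be checked against marker genes.

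Endoderm gives rise to the gut, liver and pancreas, and extraembryonic endoderm to the yolk sac. Gata4, Gata6, Sox17, Foxa2 and Hnf4a encode transcription factors that act from the first endoderm cells to the hepatocyte. Afp, Alb, Ttr and Apoa1 encode proteins that yolk sac and liver secrete into the blood, and EBs are known to form an outer layer of endoderm cells. Cohesin holds DNA loops and is often found where the insulator protein CTCF binds.

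The libraries differed in depth, with 13714772 autosomal reads in ESC RAD21, 7740389 in EB RAD21, 12602155 in ESC IgG and 6929293 in EB IgG. A read was therefore worth 0.0729 reads per 1000000 autosomal reads (RPM) in ESC RAD21 and 0.129 RPM in EB RAD21. Reads were counted within 250 bp of the site's summit, and random windows of this size held 0.200 RPM in ESC RAD21 and 0.199 RPM in EB RAD21 on average. Ratios between cell types were scaled by these depths, with 95% intervals that cover counting error only.

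The sequences that most resembled a CTCF motif are shown for the sites away from the Gata6 and Ttr loci that passed the motif threshold, because CTCF sites are the best known places of cohesin. Each is given 5′ to 3′ on the strand of the match, from mm9, with the 20 bases of the match in capitals and 20 bases on each side. The matches lay at chr14:63826111-63826170 (+ strand), chr2:163357815-163357874 (+), chr5:90929930-90929989 (-), chr5:91030658-91030717 (+), chr9:46110346-46110405 (+) and chr9:46122727-46122786 (-), in this order.
Gata4, 64.4 kb downstream of the start: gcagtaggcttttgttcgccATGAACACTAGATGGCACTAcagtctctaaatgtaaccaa
Hnf4a, 25.4 kb downstream: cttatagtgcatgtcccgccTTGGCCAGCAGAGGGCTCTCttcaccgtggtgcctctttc
Afp, 10.3 kb downstream: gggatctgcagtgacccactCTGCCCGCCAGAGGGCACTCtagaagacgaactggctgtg
Afp, 111.0 kb downstream: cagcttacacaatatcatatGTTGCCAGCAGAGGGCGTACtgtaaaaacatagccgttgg
Apoa1, 73.7 kb downstream: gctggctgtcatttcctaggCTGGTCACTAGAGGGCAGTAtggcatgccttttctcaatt
Apoa1, 86.0 kb downstream: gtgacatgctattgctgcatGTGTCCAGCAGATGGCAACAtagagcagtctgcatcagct

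The EB-only sites outside exons and promoters with the largest EB to ESC ratios, again away from the Gata6 locus, are shown around their summits (mm9, + strand), with the summit and 5 bases on each side in capitals. They held no CTCF match past the threshold. The first lay between Ankrd17 and Alb at chr5:90834426-90834526 and the other in an intron of Sik3, upstream of Apoa1, at chr9:45999833-45999933.
Alb, 55.4 kb upstream: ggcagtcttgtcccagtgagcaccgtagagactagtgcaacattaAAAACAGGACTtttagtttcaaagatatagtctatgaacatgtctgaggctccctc
Apoa1, 36.8 kb upstream: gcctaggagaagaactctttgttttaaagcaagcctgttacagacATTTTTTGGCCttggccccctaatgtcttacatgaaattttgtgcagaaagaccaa

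More of the 9 genes had a RAD21 site in EBs than in ESCs. An ESC site lay within 100 kb of 6 genes (66.7%), against 82.3% of all coding autosomal genes. An EB site lay within 100 kb of 8 genes (88.9%), against 73.6%. Gata4 and Gata6 had EB sites and no ESC site, a combination found at 3.52% of all coding genes. For Gata4 this depended on the distance and on the lists. Its nearest ESC site lay 100.2 kb from the gene body, and its EB site held 1.31 RPM in ESC RAD21 and 1.42 RPM in EB RAD21. Sox17 had no site of either list.

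The lists had 6 sites in common around the genes. These were 42.9% (interval 17.7 to 71.1) of the 14 sites found in ESCs, against 48.6% over the autosomes, and 33.3% (13.3 to 59.0) of the 18 found in EBs, against 68.3%. The remaining sites were 8 ESC-only (30.8%) and 12 EB-only (46.2%) of the 26, against 41.9% and 18.5% of all sites. The interval held the autosomal share for ESCs and not for EBs. It treats the sites as separate draws, although several lay at the same gene, such as the 4 EB-only sites of Gata6. Because the genes were also chosen with earlier results of these data known, this is a description and no test. The sites scored low for these lists, with a median deposited score of 78.4 in ESCs and 66.9 in EBs, against 94.5 and 97.7 for all sites.

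More of the 26 sites had higher reads in EBs than in ESCs. EB RAD21 reads were at least 2 times ESC reads, after 1 read was added to each count, at 10 of 26 sites (38.5%), against 19.4% of all sites. ESC reads were at least 2 times EB reads at 4 of 26 sites (15.4%), against 23.4%. The counting interval of the ratio lay above 1 at 9 sites (34.6%), against 20.2%, and below 1 at 1 site (3.85%), against 18.4%. The 9 sites were the 4 of Gata6, 3 at Alb and Afp, 1 downstream of Hnf4a and 1 upstream of Apoa1. All but the shared Afp site were EB-only, and the site below 1 was ESC-only. Such sites had been selected for low reads in the other cell type. These counts therefore restate in part how the lists differ.

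**Figure D1:**
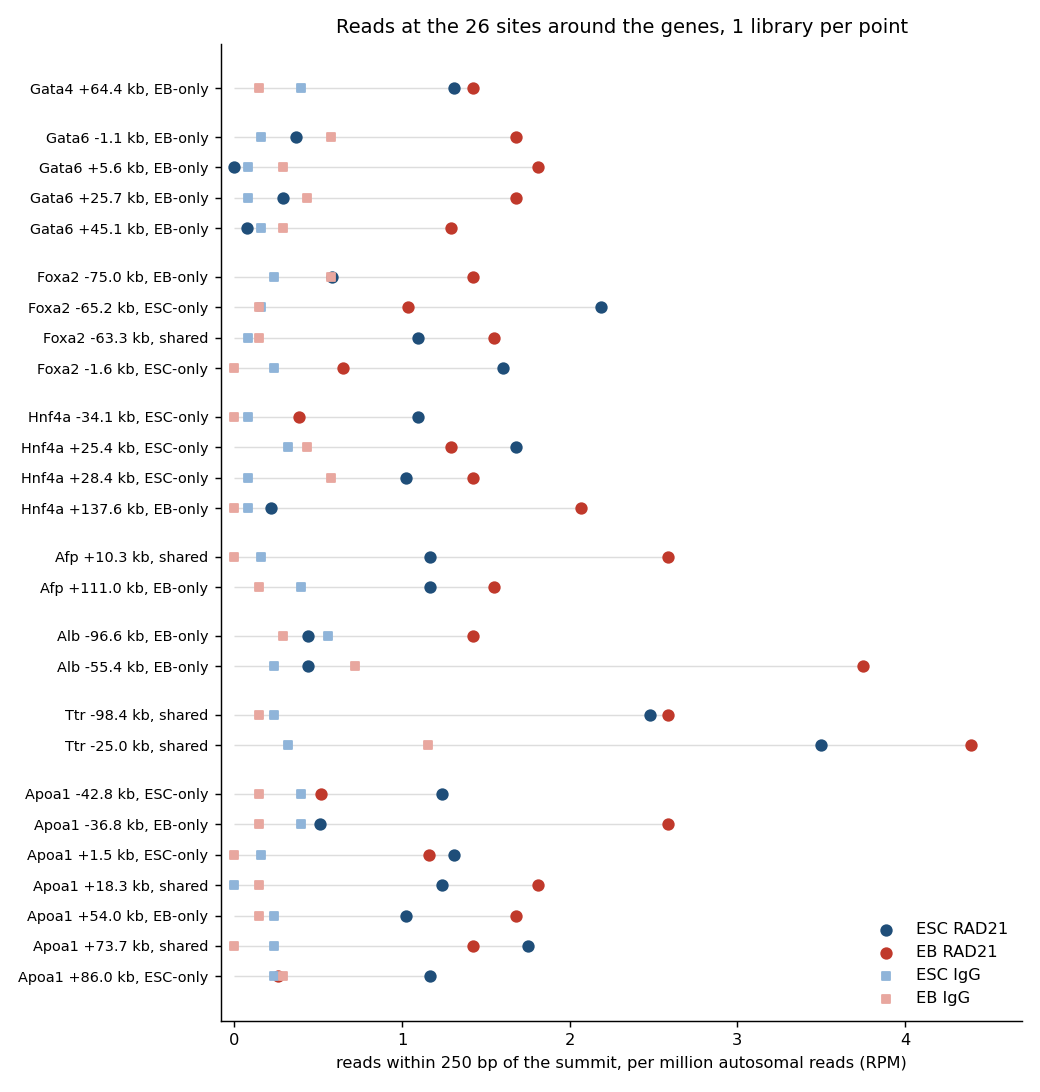
Reads within 250 bp of the summit at the 26 sites, in RPM, for the ESC and EB RAD21 libraries (circles) and the IgG libraries (squares); signs give the direction from the gene start. The 4 Gata6 sites and the Alb site 55.4 kb upstream have few ESC RAD21 reads, while both Ttr sites are high in both cell types.

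On the log2 scale, EB against ESC RAD21 reads had a median of 0.51 at the 26 sites and 0.03 at all sites. In the IgG libraries it was 0.07 and 0.28. Sites listed in 1 cell type only had been selected for low reads in the other, so their ratios describe the lists. At the 12 EB-only sites, of which 4 were those of Gata6, the median log2 ratio was 2.13, against 1.49 at all EB-only sites. The interval of this median from the ranked sites, 0.73 to 2.92, held the value of all EB-only sites. At the 8 ESC-only sites the median was -0.99 against -1.11. The 6 shared sites had 0.43 against 0.38. The EB-only sites of these genes had a median of 0.437 RPM in ESC RAD21, against 0.729 RPM at all EB-only sites, and 1.68 against 1.81 RPM in EB RAD21.

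**Figure D2:**
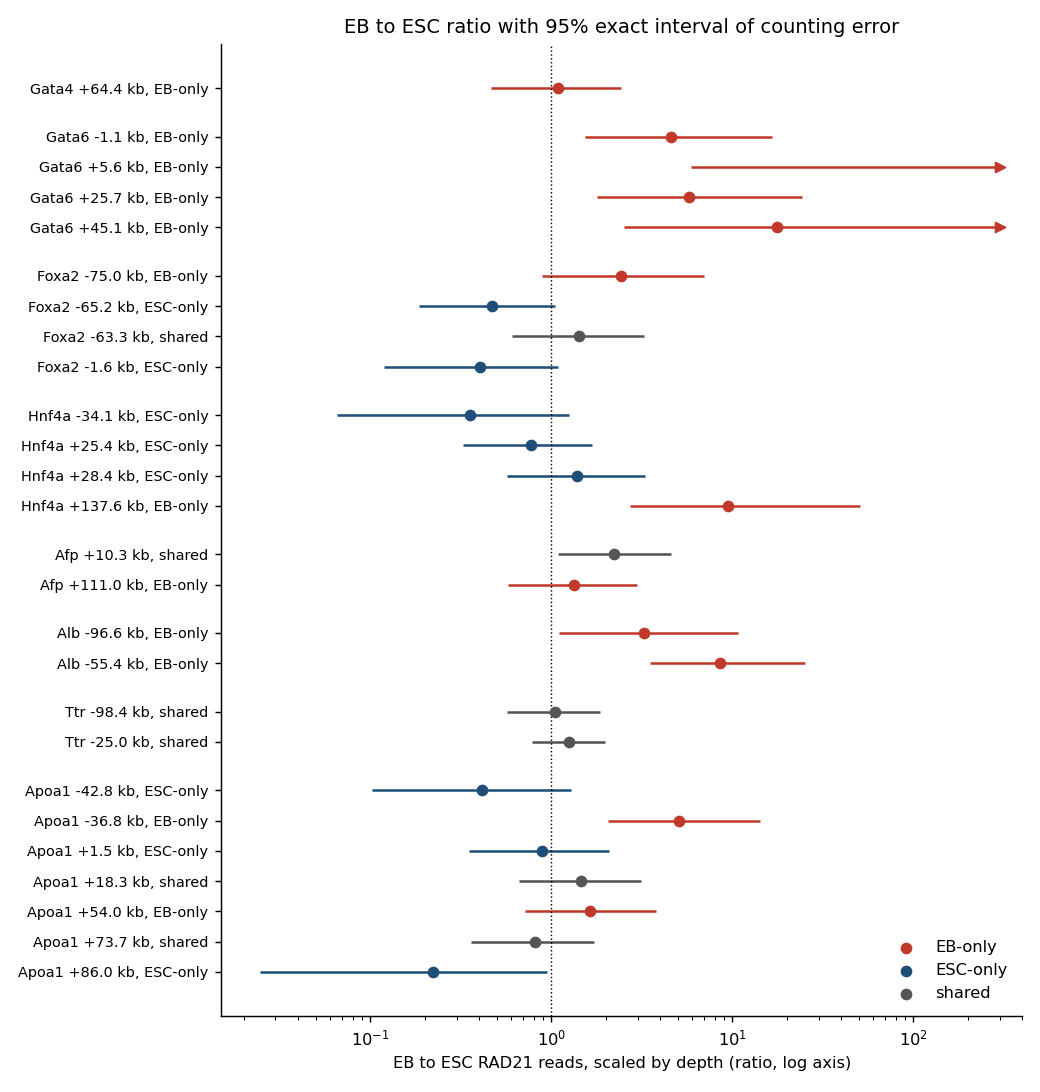
Ratio of EB to ESC RAD21 reads at the 26 sites on a log axis, scaled by depth, with 95% exact intervals of counting error; arrows mark intervals that go beyond the axis, and the Gata6 site at 5.6 kb, with 0 ESC reads, is drawn as its interval only. The intervals of 9 sites lie above 1 and that of 1 site, 86.0 kb downstream of Apoa1, below 1.

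Gata4 encodes a zinc finger factor of endoderm and heart and lies on chromosome 14 (63817759 to 63890529, - strand). Its only site within 100 kb was listed in EBs, in an intron 64.4 kb downstream of the start, and had the low score of 51.8. It held 18 reads in ESC RAD21, 11 in EB RAD21, 5 in ESC IgG and 1 in EB IgG. Scaled by depth, RAD21 was at 1.31 RPM in ESCs and 1.42 RPM in EBs, and the ratio of 1.08 (0.462 to 2.42) gave no detectable difference. When both cell types were called by 1 procedure, this site was also called in ESCs at full depth and in 2 of 3 draws that were thinned to the EB read numbers. The lists thus differed at Gata4 where the reads did not detectably differ. At full depth the procedure called a pair of further ESC windows near Gata4, neither on a deposited EB site. The window 75.7 kb downstream held 13 ESC RAD21, 8 EB RAD21, 1 ESC IgG and 0 EB IgG reads, and the one 86.5 kb upstream held 21, 7, 5 and 2 reads. The nearest deposited ESC site lay 100.2 kb from the gene body, just outside the distance used.

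Gata6, a relative of Gata4 needed for primitive endoderm, had RAD21 sites in EBs alone. It lies on chromosome 18 (11052508 to 11085633, + strand) and had 4 sites, each listed in EBs only. The nearest ESC site was 166.3 kb from the gene body.

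The first Gata6 site lay 1078 bp upstream of the start, beside the start of the noncoding gene 1010001N08Rik, and held 5 ESC RAD21, 13 EB RAD21, 2 ESC IgG and 4 EB IgG reads. The site 5.6 kb downstream, in an intron, held 0, 14, 1 and 2 reads in the same order. EBs were high there and ESCs did not exceed their IgG library. The intronic site 25.7 kb downstream held 4, 13, 1 and 3 reads. The intergenic site 45.1 kb downstream held 1, 10, 2 and 2 reads. At each of the 4 sites the EB RAD21 library was the highest of the 4.

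The EB to ESC ratio at Gata6 was 4.61 (1.54 to 16.5) at the upstream site and 5.76 (1.78 to 24.2) at 25.7 kb. It was 17.7 at 45.1 kb, with an interval of 2.52 to 769 that reflects the 1 ESC read. At 5.6 kb, with 0 ESC reads, the ratio had no upper limit and its interval began at 5.88. Over the 4 sites together there were 10 ESC and 50 EB RAD21 reads, against 6 and 11 IgG reads, not scaled by depth. IgG was also higher in EBs after scaling, on few reads. With 1 read added, its log2 EB to ESC ratio was 1.60, 1.45, 1.86 and 0.86 in order of position. RAD21 to IgG went from 1.84 in ESCs to 2.51 in EBs at the upstream site and from 2.30 to 3.13 at 25.7 kb. It went from 0.459 to 4.48 at 5.6 kb and from 0.613 to 3.28 at 45.1 kb. None of the 4 was called in ESCs by the common procedure, at full depth or in any thinned draw, and all 4 were called in EBs. That procedure called 1 further window in the ESC library at full depth, 88.6 kb downstream of the start, with 12 ESC and 1 EB RAD21 reads.

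**Figure D3:**
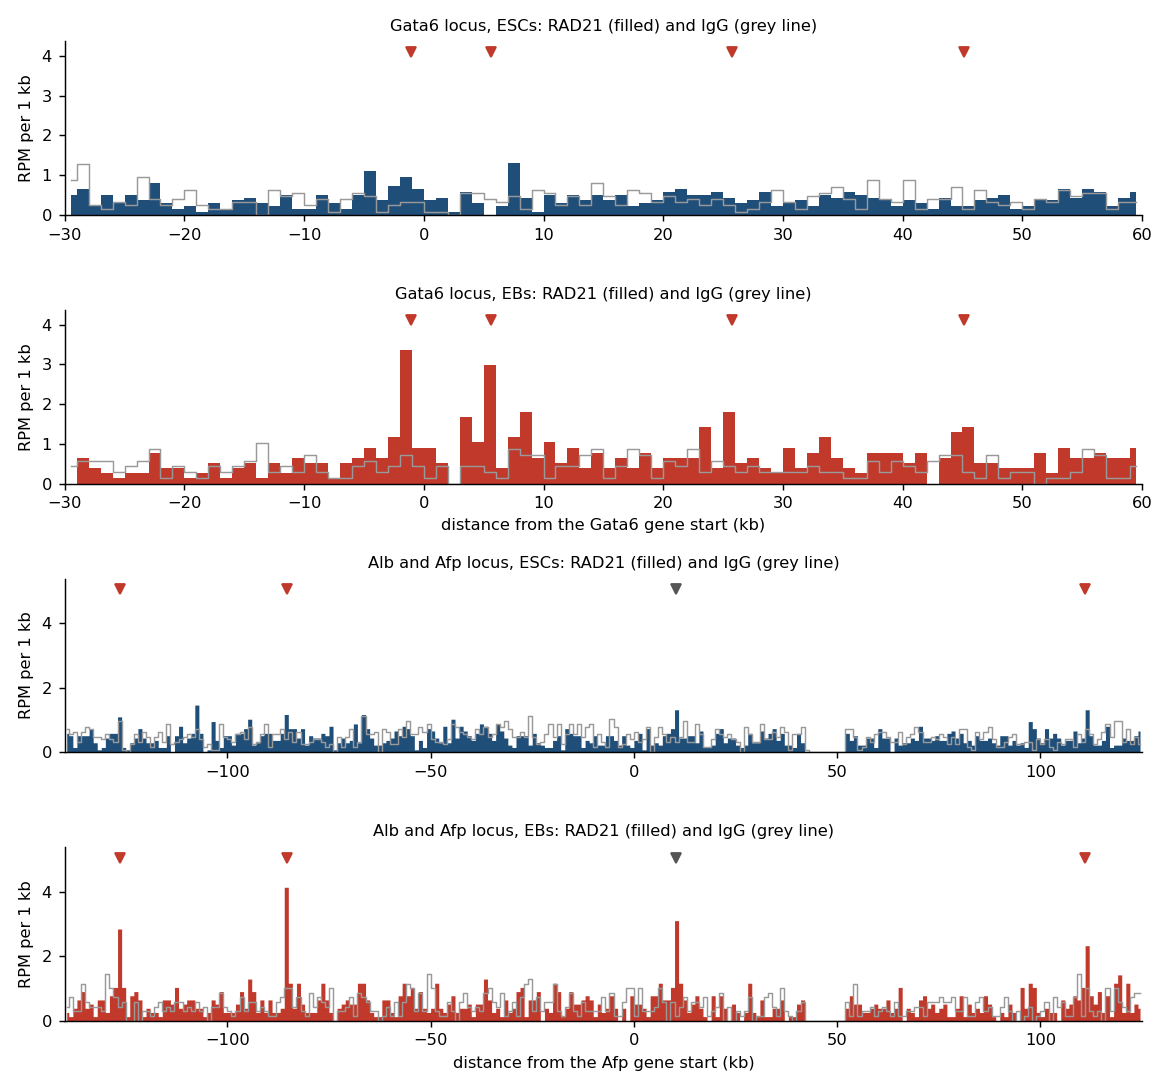
RAD21 (filled) and IgG (grey line) reads in RPM per 1 kb against the distance from the Gata6 start and from the Afp start, with ESCs above EBs for each locus; triangles mark deposited sites (red EB-only, grey shared). RAD21 stands above IgG at the 4 Gata6 sites in EBs, and at the Alb and Afp locus the peak 85.3 kb upstream of Afp (55.4 kb upstream of Alb) is the highest in EBs.

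Sox17, an HMG box factor of definitive and extraembryonic endoderm on chromosome 1 (4481009 to 4486494, - strand), had no deposited site within 100 kb. Its nearest ESC site was 158.0 kb and its nearest EB site 271.9 kb from the gene body. The common procedure called a window 20.4 kb upstream in EBs, with 13 ESC RAD21, 11 EB RAD21, 4 ESC IgG and 4 EB IgG reads. RAD21 reads there were above IgG in both cell types.

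Foxa2, a forkhead factor that opens chromatin at liver genes, lies on chromosome 2 (147868613 to 147872705, - strand) and had 4 sites, all intergenic and upstream. The ESC-only site nearest to it, 1577 bp upstream of the start, held 22 ESC RAD21, 5 EB RAD21, 3 ESC IgG and 0 EB IgG reads. The ESC-only site 65.2 kb upstream, with the score of 197, held 30, 8, 2 and 1 reads. ESCs were higher at both, with ratios of ESC to EB of 2.48 (0.918 to 8.39) and 2.12 (0.948 to 5.34), whose intervals included 1.

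The shared site 63.3 kb upstream of Foxa2 held 15 ESC RAD21, 12 EB RAD21, 1 ESC IgG and 1 EB IgG reads. The EB-only site 75.0 kb upstream held 8, 11, 3 and 4 reads, an EB to ESC ratio of 2.44 (0.893 to 6.98). RAD21 to IgG there was nearly the same in both cell types, 2.07 in ESCs and 2.15 in EBs. Foxa2 thus carried sites with more reads in ESCs and sites with more in EBs, and every interval included 1. Both ESC-only sites were called in ESCs in all 3 thinned draws and neither was called in EBs. A further ESC window 35.5 kb upstream, on no listed site and called at full depth, held 15, 9, 5 and 2 reads.

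Hnf4a, a nuclear receptor that controls many hepatocyte genes, lies on chromosome 2 (163332544 to 163398646, + strand) and had 3 ESC-only sites and 1 EB-only site. The ESC-only site 34.1 kb upstream lay at the start of Fitm2 and held 15 ESC RAD21, 3 EB RAD21, 1 ESC IgG and 0 EB IgG reads. Its ratio of ESC to EB was 2.82 (0.798 to 15.2). Both other ESC-only sites lay within Hnf4a introns.

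The intronic Hnf4a site 25.4 kb downstream of the start held 23 ESC RAD21, 10 EB RAD21, 4 ESC IgG and 3 EB IgG reads. The one at 28.4 kb held 14, 11, 1 and 4 reads, so that EBs were the higher after scaling, at 1.42 against 1.02 RPM. Neither ratio was detectably different from 1. The EB-only site lay 137.6 kb downstream of the Hnf4a start, at the starts of Serinc3 and 0610039K10Rik, and held 3, 16, 1 and 0 reads. Its EB to ESC ratio of 9.45 (2.70 to 50.6) was among the highest of the 26, but the nearest starts belong to those genes. The common procedure called a further EB window 152.4 kb downstream, with 3, 10, 3 and 0 reads.

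Afp encodes alpha-fetoprotein, the main serum protein of the fetus, and Alb encodes albumin, which takes its place after birth. They lie side by side on chromosome 5 (Alb 90889915 to 90905629, Afp 90919740 to 90937933, both + strand). Together they had 4 sites, 3 EB-only and 1 shared.

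The EB-only site 55.4 kb upstream of Alb, in the intergenic stretch shown above, held 6 ESC RAD21, 29 EB RAD21, 3 ESC IgG and 5 EB IgG reads. EB RAD21 stood at 3.75 RPM, the highest of all EB-only sites here, and ESC RAD21 at 0.437 RPM. The EB to ESC ratio was 8.56 (3.49 to 25.2). IgG was also higher in EBs here, with a log2 ratio of 1.45 after 1 read was added. RAD21 to IgG was 1.61 in ESCs and 4.48 in EBs. The EB-only site 96.6 kb upstream of Alb, in an intron of Ankrd17, held 6, 11, 7 and 2 reads, and its ratio was 3.25 (1.10 to 10.7). ESC RAD21 did not exceed ESC IgG there.

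The shared site lay in an intron of Afp, 10.3 kb downstream of its start, and held 16 ESC RAD21, 20 EB RAD21, 2 ESC IgG and 0 EB IgG reads. Although it was listed in both cell types, EBs were 2.21-fold higher (1.09 to 4.57). The EB-only site 111.0 kb downstream of Afp, between Afp and Rassf6, held 16, 12, 5 and 1 reads. Its ratio of 1.33 (0.574 to 2.99) gave no detectable difference, and the common procedure called it in ESCs at full depth but in none of the thinned draws. The counting interval thus lay above 1 at 3 of the 4 sites of this locus. Apart from the shared site these were EB-only, and so selected for low ESC reads. Shared sites over the autosomes also had more EB reads after depth scaling, with a median log2 ratio of 0.38, against 1.13 at the shared Afp site.

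Apoa1 encodes the main protein of high density lipoprotein and lies on chromosome 9 (46036663 to 46038549, + strand), in a cluster with Apoa4, Apoa5 and Apoc3. It had 7 sites, the most of the 9 genes, of which 3 were ESC-only, 2 EB-only and 2 shared. Both sites upstream lay in introns of Sik3 and went opposite ways. The ESC-only site 42.8 kb upstream held 17 ESC RAD21, 4 EB RAD21, 5 ESC IgG and 1 EB IgG reads, and the EB-only site 36.8 kb upstream held 7, 20, 5 and 1 reads. The EB to ESC ratio was 5.06 (2.06 to 14.2) at the EB-only site, and the ESC to EB ratio 2.40 (0.782 to 9.80) at the ESC-only site.

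The ESC-only site 1.5 kb downstream of the start lay in an exon of Apoa1 itself and held 18 ESC RAD21, 9 EB RAD21, 2 ESC IgG and 0 EB IgG reads. It was at 1.31 RPM in ESCs and 1.16 RPM in EBs, and the common procedure called it in EBs too. The shared site 18.3 kb downstream held 17, 14, 0 and 1 reads, and the one at 73.7 kb held 24, 11, 3 and 0 reads. None of these 3 sites differed detectably between the cell types.

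Farther downstream of Apoa1, the EB-only site 54.0 kb from the start, at the start of Bud13, held 14 ESC RAD21, 13 EB RAD21, 3 ESC IgG and 1 EB IgG reads. The ESC-only site at 86.0 kb, in an intron of 4931429L15Rik, held 16, 2, 3 and 2 reads. It was the site whose interval lay below 1, with RAD21 4.52-fold higher in ESCs (1.06 to 40.5).

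Ttr encodes transthyretin, which carries thyroid hormone, and lies on chromosome 18 (20823751 to 20832825, + strand). Both of its sites were shared and they held the most ESC RAD21 reads of the 26. The one 98.4 kb upstream, in an intron of Dsg2, held 34 ESC RAD21, 20 EB RAD21, 3 ESC IgG and 1 EB IgG reads. The one 25041 bp upstream held 48, 34, 4 and 8 reads. RAD21 exceeded IgG in both cell types, and the EB to ESC ratios of 1.04 (0.568 to 1.86) and 1.26 (0.784 to 1.99) showed no detectable difference. Both were called in every thinned draw. A further EB window 79.6 kb downstream held 7, 12, 4 and 3 reads.

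The genes were also compared by the reads within 1 kb of their starts, where few sites lay. RAD21 was at least 2 times IgG, after 1 read was added to each count, at 2 of 9 starts in ESCs (Gata6 and Apoa1, 22.2%), against 16.6% of all coding starts. In EBs it was so at 2 of 9 starts (Gata6 and Hnf4a), against 25.6%. The median ratio over the 9 starts was 1.15 in ESCs and 1.07 in EBs, against 1.18 and 1.25 over all coding starts.

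At the Gata6 start there were 14 ESC RAD21, 14 EB RAD21, 5 ESC IgG and 4 EB IgG reads. At the Apoa1 start there were 15, 7, 4 and 3 reads, and its RAD21 to IgG ratio without the added read was 3.45 (1.10 to 14.3) in ESCs. Among the 9 starts this interval alone lay above 1. The Hnf4a start held 8, 6, 11 and 1 reads, so that its EB ratio rested on 1 IgG read.

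The starts of the serum protein genes Alb, Afp and Ttr had no excess of RAD21. Alb held 6 ESC RAD21, 6 EB RAD21, 12 ESC IgG and 6 EB IgG reads. Afp held 7, 10, 13 and 8 reads, and Ttr 14, 9, 22 and 8 reads. In each of these the ESC RAD21 library was below the ESC IgG library. The starts of Gata4, Sox17 and Foxa2 were also near background, with 9, 4, 7 and 9 reads at Gata4, 12, 5, 9 and 6 at Sox17 and 9, 5, 5 and 4 at Foxa2.

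**Figure D4:**
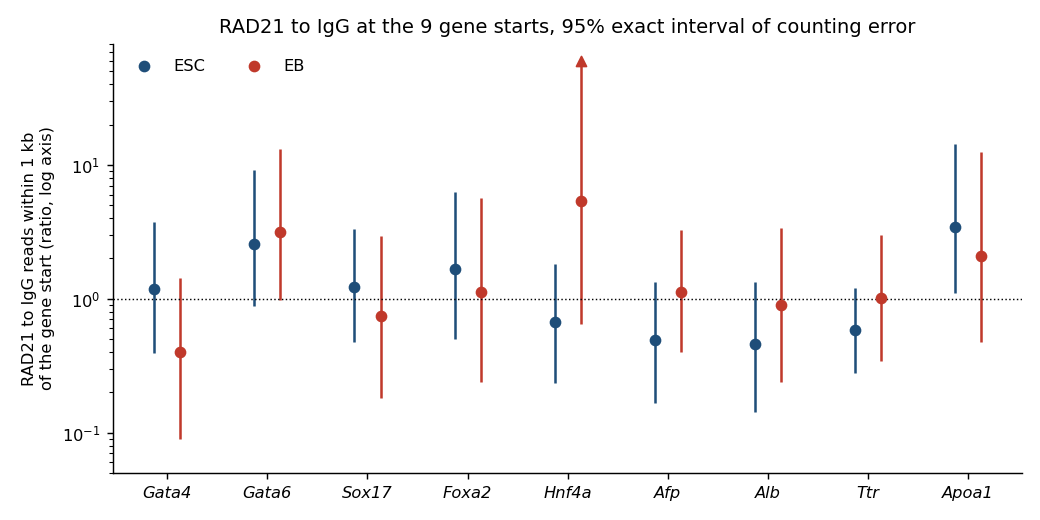
Ratio of RAD21 to IgG reads within 1 kb of the 9 gene starts on a log axis, scaled by depth, for ESCs (blue) and EBs (red), with 95% exact intervals of counting error; the arrow marks an interval beyond the axis. The intervals include 1 except that of Apoa1 in ESCs.

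Some genes have further annotated starts, where the same counts were made. Gata4 had 4 starts more than 500 bp apart, and the one 26421 bp downstream of the first held 7 ESC RAD21, 10 EB RAD21, 7 ESC IgG and 1 EB IgG reads. RAD21 to IgG was 8.95 in EBs (1.27 to 389) and 0.919 in ESCs there, the EB value resting on 1 IgG read. The inner starts of Hnf4a and Foxa2 held at most 11 reads in any library.

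Outside the deposited sites, the 100 kb around the gene bodies differed less between the cell types. The depth-scaled ratio of EB to ESC RAD21 reads ran from 0.770 at Ttr to 1.17 at Gata6, and over 21012 coding genes from 0.656 at the 5th percentile to 1.22 at the 95th. At Gata6 it was 1.17 (1.07 to 1.28) and the IgG ratio 0.992 (0.898 to 1.10). Afp had 1.12 (1.02 to 1.22) against 0.922 in IgG, Alb 1.12 against 0.933, and Gata4 1.12 (1.03 to 1.21) against 0.956. Ttr had 0.770 (0.701 to 0.844) against 0.900. All 9 values lay between these percentiles.

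At equal read numbers the ESC libraries gave 12 called windows within 100 kb of the 9 genes, and the EB libraries gave 22. Over all autosomes the same procedure gave 14342 windows in ESCs and 14292 in EBs. At full depth the ESC libraries also gave 22 around the genes, of 21916 on the autosomes. Of the 12 EB-only sites 3 were called in ESCs at full depth, at Gata4, at Foxa2 (75.0 kb upstream) and downstream of Afp (111.0 kb), and 1, that of Gata4, was called in any thinned draw. Of the 8 ESC-only sites 1, the exonic Apoa1 site, was called in EBs. The other 7 were not called there, while each of the 8 was called in at least 1 thinned ESC draw. The same shares over all EB-only and ESC-only sites of the autosomes were not counted, so these numbers describe the sites of the 9 genes only.

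The positions of the sites were compared with the annotation. Of the 26, 12 (46.2%) lay in introns, 9 (34.6%) between genes, 4 (15.4%) within 1 kb of a transcription start and 1 (3.85%) in an exon. Over all sites these shares were 37.7%, 51.6%, 7.59% and 3.10%. The starts were those of Fitm2, Serinc3, Bud13 and 1010001N08Rik, so that no site lay within 1 kb of a start of the 9 genes themselves. The median GC content over 501 bases was 52.5% at the ESC-only and 42.5% at the EB-only sites, against 46.3% and 41.5% over all sites of these kinds.

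CTCF matches were scored within 150 bp of the summit. A match was found at 5 of 14 ESC sites (35.7%, 12.8 to 64.9), against 48.4% of all ESC sites, and at 6 of 18 EB sites (33.3%, 13.3 to 59.0), against 46.9%. These shares depended on the matrix and the rate, which were chosen after the shares of 3 configurations had been seen. With the rate counted for each strand, 8 ESC sites (57.1%) and 7 EB sites (38.9%) had a match, against 61.7% and 58.2%. With a matrix relearned from its best matches, 2 ESC sites (14.3%) and 1 EB site (5.56%) had one, against 28.4% and 19.5%. In each configuration the share over the whole list lay within the counting interval of the share around the 9 genes. The paper, which searched with a published motif and other software, reported the CTCF motif at a larger share of all ESC sites than any of these. A site without a match here can therefore still hold a CTCF motif by the paper's search.

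By kind of site, a match was present at 3 of 6 shared, 2 of 8 ESC-only and 2 of 12 EB-only sites, against 54.5%, 42.6% and 30.8% of all sites of these kinds. The EB-only sites with a match were those of Gata4 and downstream of Afp, and neither differed detectably between the cell types. None of the 4 Gata6 sites and none of the EB-only sites at Alb, upstream of Apoa1 and downstream of Hnf4a had a match with the kept matrix and rate. The EB to ESC ratios of these sites were high. At a rate of 1e-04 the Gata6 site 5.6 kb downstream and the Apoa1 site 36.8 kb upstream had one. At that rate 4 of the 12 EB-only sites had a match (33.3%, 9.92 to 65.1), against 55.7% of all EB-only sites. The Apoa1 site 36.8 kb upstream gained one when the rate was counted for each strand. The Ttr site 98.4 kb upstream had a match within reach of its EB summit but not of its ESC summit, and 2 sites, at Ttr (25041 bp upstream) and Apoa1 (86.0 kb downstream), had a match in all 3 configurations.

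Letter patterns of endoderm factors were searched on both strands in the same windows. The letters AGATAAG, bound by GATA factors, occurred at 1 of 18 EB sites, against 4.03% of all EB sites, at the site 25.7 kb downstream of the Gata6 start. TGTTTAC (forkhead factors) occurred at 1, downstream of Afp (111.0 kb), against 4.95%. GTTAAT (HNF1) occurred at 2, upstream of Alb (96.6 kb) and downstream of Hnf4a (137.6 kb), against 12.0%. ACAAAGG (SOX factors) occurred at 1 EB site, of Gata6 (5.6 kb), and at 1 of 14 ESC sites, of Apoa1 (42.8 kb), against 7.14% and 7.11%. CAAAGTCCA (HNF4) and TTGCGCAA (C/EBP) occurred at none, against 0.427% and 0.0557% of all EB sites.

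Other gene lists gave the following counts beside the 8 ESC-only and 12 EB-only of 26 sites of the 9 genes, and the 41.9% and 18.5% of all sites; no difference between lists was tested. Of the 42 sites around 15 further endoderm transcription factor genes, 23 were ESC-only and 3 EB-only, and EB reads were at least 2 times ESC reads at 2 (4.76%) and ESC reads at least 2 times EB reads at 12 (28.6%). The 64 sites around 15 extraembryonic and visceral endoderm genes included 22 ESC-only and 8 EB-only sites, with 9 (14.1%) at least 2 times higher in EBs and 13 (20.3%) in ESCs. The 60 sites around 21 liver serum protein and enzyme genes included 20 ESC-only and 15 EB-only sites, with 13 (21.7%) at least 2 times higher in EBs and 14 (23.3%) in ESCs. Of these 60, 9 were also sites of the 9 genes, through the Apoa1 cluster and the neighbours of Alb. Of 35 sites around cardiac genes, 17 ESC-only and 6 EB-only, 7 (20.0%) were at least 2 times higher in EBs and 14 (40.0%) in ESCs. Of 19 around neural genes, 9 ESC-only and 2 EB-only, 4 (21.1%) were so in EBs and 4 in ESCs.

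Single sites in these lists moved either way. The site 46.0 kb from Gc, the vitamin D binding protein, held 3 ESC and 19 EB RAD21 reads (11.2-fold, 3.30 to 59.2), and the one 61.5 kb from Dab2, an adaptor of visceral endoderm, held 11 and 24. In the other direction, the site 12.6 kb from Tat, a liver enzyme gene, held 21 ESC and 1 EB reads, the one 54.6 kb from Gsc held 21 and 1, and the one 46.1 kb from Sparc held 21 and 0.

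**Figure D5:**
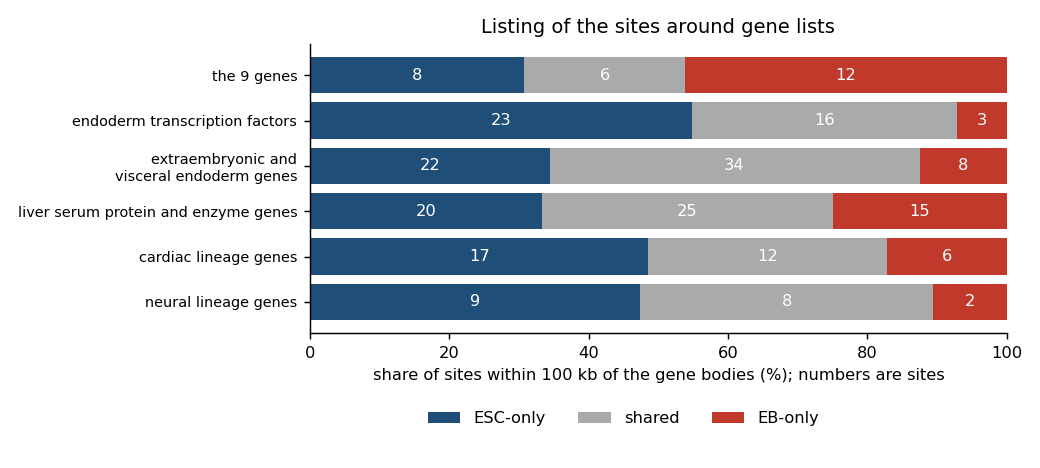
Share of the sites within 100 kb of the gene bodies that were ESC-only, shared or EB-only, for the 9 genes and for 5 other gene lists, with the number of sites in each bar. EB-only sites make up 12 of 26 sites around the 9 genes and 18.5% of all sites. They make up 3 of 42 sites in the endoderm transcription factor list and 8 of 64 in the extraembryonic and visceral endoderm list. In the liver list they make up 15 of 60, of which 60 sites 9 are also sites of the 9 genes.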

How the data were processed

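The authors deposited aligned 35 base reads of the 4 libraries on mm9, 1 read per line, used here as read counts; the aligner is not given in the sources used here. They ran MACS for ESCs and EBs separately, with the IgG library as control, and deposited a score per peak, -10 times log10 of its p-value, and the signal of piled-up reads at each summit, not scaled between libraries. The sources disagree on the p limit; no deposited score was under 50.01, a p of 1e-05. The ESC IgG file held 7 broken lines and the EB IgG file breaks off on chromosome X. Neither touches the 9 autosomal genes.

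Reads were moved to the fragment centre (206 bp fragments in ESCs, 197 bp in EBs) and counted within 250 bp of summits and 1 kb of GENCODE vM1 gene starts. Sites overlapping by 1 bp were shared. Ratios per site carry exact binomial intervals and shares exact Clopper-Pearson intervals (confidence level 0.95, counting error only). Intervals of medians were taken from the ranked values of the sites and treat these as separate draws. Thresholds of 2-fold used 1 added read. The common procedure called 400 bp windows in steps of 50 bp whose reads passed 1e-05 under a Poisson background, with the ESC libraries thinned in 3 draws. The CTCF matrix of width 20 was learned on odd chromosomes and scored on even ones, and the other way round, at a rate of 1e-05 per position of random windows. It and its rate were kept after 3 configurations had been run on these sites. The scripts were tested on simulated data and used Python 3.11.15, numpy 2.4.6, scipy 1.17.1 and pandas 2.3.3.

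The genes, lists and patterns were chosen with earlier results of these data known. All 9 genes were described with every site; of the other lists, at most 3 genes per list and direction could be named, those with the largest ratios among sites with at least 20 RAD21 reads. Sox1 and Map2 were not matched in the annotation.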

Additional observations from a re-analysis of the deposited data

Results flagged for a closer look

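At 4 sites and 4 gene starts RAD21 was above IgG in one cell type and below it in the other, with 1 read added to each count and 1 library per group. These differences were not tested. The same counts over all sites and all coding starts were not made, so it is not known whether these numbers are unusual. Over all coding starts the median ratio was 1.18 in ESCs and 1.25 in EBs, near the value of 1 used here. The RAD21 to IgG ratio was 0.459 in ESCs and 4.48 in EBs at the Gata6 site 5.6 kb downstream, 0.613 and 3.28 at the Gata6 site 45.1 kb downstream, and 0.804 and 3.58 at the Alb site 96.6 kb upstream. It was 3.91 in ESCs and 0.895 in EBs at the Apoa1 site 86.0 kb downstream. Sites of 1 list only were selected for such a contrast. At the starts it was 1.15 in ESCs and 0.448 in EBs for Gata4, 1.19 and 0.767 for Sox17, 0.689 and 3.13 for Hnf4a, and 0.525 and 1.09 for Afp, each on at most 13 reads per library.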

How the results depend on the processing

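Of 45 alternatives to 13 results, 29 left the value within its interval or within 1.5 times the count, and 16 moved it. A change of direction was defined for the medians only, and 0 of their alternatives changed it. The RAD21 to IgG medians were unlikely to change direction, because their sites had been called for that excess. No paired analysis was possible because each group held 1 library. The number of ESC sites, 14, became 9 within 50 kb, 28 within 200 kb and 3 with a score of at least 100, and that of EB sites, 18, became 9, 31 and 5. Asking for a score of 100 or more in the other list lowered the share of ESC sites listed in EBs to 14.3% and that of EB sites listed in ESCs to 11.1%. A pseudocount of 0.1 read raised the median RAD21 to IgG ratio from 6.36 to 9.01 at ESC sites and from 5.60 to 9.44 at EB sites. The number of starts with RAD21 at least 2 times IgG in EBs, 2, became 1 within 500 bp and 4 over every annotated transcript start. A motif rate of 1e-04 raised the share of ESC sites with a CTCF match to 78.6%, and the relearned matrix, added after seeing the data, lowered that of EB sites to 5.56%. The genome-wide background alone raised the windows called at equal depth from 12 to 20 in ESCs and from 22 to 30 in EBs, and a p of at most 1e-07 lowered them to 8 and 13. The median log2 EB to ESC value stayed above 0 throughout. Among the alternatives it ran from 0.13, with shared sites scaled to a median of 0, up to 0.50. Its interval of -0.10 to 1.60 included 0. That interval was taken from the ranked values of the 26 sites, so it describes the spread between sites and not counting error. Some ratios at single sites, as high as 2.82, had counting intervals that included 1, while that of 2.21 at the shared Afp site did not. Counting intervals do not cover the spread between libraries, which was not measured.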
